A study of Arabidopsis thaliana with 26 samples.

Results

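The genes described here are 235 Arabidopsis thaliana genes that carry locus numbers of the pericentromeres, the regions on both sides of the centromeres, and that were expressed in untreated plants. They were chosen by locus number, as identifiers ending in 0 within 6 number windows: 1 window each on chromosomes 1, 3, 4 and 5, and 2 windows, 2a and 2b, on chromosome 2. A gene also had to reach a floor of 20 raw counts summed over the 12 untreated libraries, and NIA2, PSBX and QQS were left out by name. Of 564 such identifiers in the windows 253 had 0 untreated counts and 73 had 1 to 19. The files hold 33977 gene identifiers in all, and 19062 other expressed genes, chosen by the same ending and floor outside the windows, served as background.

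Gene counts by RNA sequencing came from whole Col-0 plants with root at 10 days of age. There were 3 replicates of wild type on 100 µM 5-azacytidine, 3 of wild type on 0 µM, 2 of an msh1 memory line on 100 µM and 2 of the memory line on 0 µM. The memory line is a line derived from plants in which MSH1, a nuclear gene for an organelle DNA-binding protein, had been suppressed, and all groups share the Col-0 background. Separate growth of the replicates is stated nowhere in the labels. The p-values therefore describe the scatter of these particular samples, part of which may be technical. The replicates, summed over 2 or 3 technical libraries, held 11412839 to 13544859 gene counts. In memory-line replicate 2, 25.7% of aligned reads had aligned more than once, against 6.49% to 13.6% in the other replicates.

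Pericentromeric DNA of Arabidopsis is packed into heterochromatin, with many transposons and few genes. Its cytosines are densely methylated, most of all in CG pairs, where maintenance methyltransferases copy the mark after each replication. 5-Azacytidine is a cytidine analogue that is built into DNA and traps these enzymes, so that methylation is lost as cells divide. Genes that are expressed in these regions stand among silent sequence without being silent themselves.

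By annotated position in TAIR10.1, 188 of the 235 genes lie inside the physical spans of the windows, and all of these are protein coding. Each span runs from the first to the last coding gene with a number ending in 0 in its window. The coding genes described here lie inside by this definition, so their position alone is no test of the pericentromere label. The spans are 12808246 to 15684487 on chromosome 1, 1890684 to 3174102 (2a) and 3704577 to 5319090 (2b) on chromosome 2 and 11783650 to 14095588 on chromosome 3. They are 2804403 to 5407320 on chromosome 4 and 11021980 to 13602355 on chromosome 5. The spans held 44.8 coding genes and 161 pseudogenes per Mb, against 254 and 25.5 per Mb in the rest of the 5 chromosomes. Of their coding identifiers ending in 0, 191 of 373 (51.2%) reached the floor, against 18990 of 23178 (81.9%) elsewhere. Inside the spans 54 genes belonged to window 1, 40 to 2a, 14 to 2b, 15 to 3, 34 to 4 and 31 to 5.

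The label did not hold for the other 47 genes, whose locus numbers are out of order with their positions. Of these, 25 genes with numbers of window 2b lie at 16.67 to 19.14 Mb on chromosome 2, and 22 with numbers of window 4 lie at 5.67 to 12.79 Mb on chromosome 4. They are 44 long noncoding RNAs, 2 antisense RNAs and the miRNA precursor gene MIR156j. More than 50% of the exon bases lie under exons of the opposite strand in 29 of them, and all exon bases in 17. The library kit does not mark the strand, so reads of these genes and of the opposite gene cannot be told apart. These 47 are called the genes outside the spans, and are given apart from the 188.

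Start regions are shown, as examples, for 4 of the 9 genes inside the spans that changed on azacytidine in wild type. They run from 250 bases before to 50 bases after the annotated gene start. That of a window gene under the floor that azacytidine switched on is added for contrast. CG pairs, the main site of copied methylation, are in capitals, and each sequence reads 5′ to 3′ on the strand of its gene in the RefSeq assembly TAIR10.1. The sequence of OPR3 covers chr2:2362326-2362625 and that of CINV1 chr1:13125279-13125578, both on the minus strand. The sequence of MLP168 covers chr1:12957041-12957340 and that of AT1G35560 chr1:13117186-13117485, also on the minus strand. The sequence of AT1G36240, on the plus strand, covers chr1:13614640-13614939.
OPR3: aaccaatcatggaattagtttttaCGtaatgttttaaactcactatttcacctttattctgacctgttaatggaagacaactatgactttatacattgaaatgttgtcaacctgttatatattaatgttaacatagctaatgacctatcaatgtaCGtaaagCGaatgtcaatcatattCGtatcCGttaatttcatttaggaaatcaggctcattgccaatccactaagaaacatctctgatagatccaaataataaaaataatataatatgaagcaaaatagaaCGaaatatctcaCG
CINV1: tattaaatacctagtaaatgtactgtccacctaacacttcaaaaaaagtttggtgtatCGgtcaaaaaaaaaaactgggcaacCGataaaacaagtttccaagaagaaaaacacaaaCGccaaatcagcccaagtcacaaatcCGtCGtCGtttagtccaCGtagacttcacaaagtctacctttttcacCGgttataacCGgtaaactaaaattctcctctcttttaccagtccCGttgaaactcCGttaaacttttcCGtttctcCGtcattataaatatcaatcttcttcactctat
MLP168: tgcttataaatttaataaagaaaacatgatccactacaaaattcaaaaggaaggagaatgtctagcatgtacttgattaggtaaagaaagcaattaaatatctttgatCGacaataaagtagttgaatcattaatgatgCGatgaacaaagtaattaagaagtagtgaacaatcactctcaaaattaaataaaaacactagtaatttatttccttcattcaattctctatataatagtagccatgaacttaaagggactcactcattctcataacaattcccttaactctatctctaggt
AT1G35560: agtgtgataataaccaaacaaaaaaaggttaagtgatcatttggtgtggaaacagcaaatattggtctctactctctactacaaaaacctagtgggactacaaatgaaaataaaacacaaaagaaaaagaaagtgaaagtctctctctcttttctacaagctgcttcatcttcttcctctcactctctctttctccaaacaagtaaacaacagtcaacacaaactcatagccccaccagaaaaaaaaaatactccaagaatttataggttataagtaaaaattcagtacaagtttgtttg
AT1G36240: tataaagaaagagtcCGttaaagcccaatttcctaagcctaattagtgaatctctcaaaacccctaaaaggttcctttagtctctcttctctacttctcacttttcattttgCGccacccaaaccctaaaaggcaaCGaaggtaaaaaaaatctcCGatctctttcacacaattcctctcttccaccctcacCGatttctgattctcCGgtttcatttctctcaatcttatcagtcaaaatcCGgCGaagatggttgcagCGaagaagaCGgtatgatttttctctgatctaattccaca
The start regions held 7 CG pairs in OPR3, 13 in CINV1, 2 in MLP168, 0 in AT1G35560 and 10 in AT1G36240. So few examples cannot relate CG pairs to the direction of change, which was not tested. Among the 188 genes inside the spans the median was 6 CG pairs (25th to 75th percentile 3 to 8), and 182 of 188 windows (96.8%) held at least 1. Among 18989 other expressed coding genes the median was also 6 (4 to 9), with at least 1 in 98.2%. It was 6 (4 to 9) in the 182 coding identifiers of the spans under the floor, with at least 1 in 95.6%. The median GC content was 30.2% in the 188 genes, 34.3% in the coding identifiers under the floor and 31.7% in the other expressed coding genes. The letters CG read the same on both strands and say nothing of whether a cytosine is methylated.

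The expressed genes inside the spans resembled the other expressed genes in level and structure. Both sets had to reach the same floor, so the likeness in level is in part by choice. Their median level was 11.6 CPM per kb of exon (counts per 1000000 gene counts, scaled between replicates), with a 25th to 75th percentile of 4.49 to 32, against 9.84 (3.54 to 23.4) in the other expressed genes. They had a median of 1786 exon bases in 5 exon blocks, against 1796 bases in 4 blocks. Window 2a had the highest median, 22.8 CPM per kb, and window 4 the lowest, 8.15. Single genes ranged from 0.214 to 663 CPM per kb.

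The genes with the highest levels per length differed widely between windows. In window 2a these were the glycine-rich protein genes GRP9, at 663 CPM per kb, and GRP-3, at 570. In window 1 they were RPL21C, a plastid ribosomal protein gene, at 545, and ANNAT1, for a calcium-binding annexin, at 241. AT2G10940, of a lipid-transfer protein family, reached 548 CPM per kb and AT2G11910 reached 135 in window 2b. RPS1, for plastid ribosomal protein S1, reached 351 and AT5G35170, of an adenylate kinase family, reached 91.9 in window 5. Window 3 was led by the peroxidase family gene AT3G32980 (85.2) and AT3G32930, a lumazine synthase gene of the riboflavin pathway (78.6). In window 4 the highest were AT4G05690 (125) and AT4G06870 (116), both noncoding RNAs outside the span, and SAPX, at 53.8, was the highest inside it. These levels are a description, and levels of the GRP genes may share reads with near copies.

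At the floor, AT4G06080, AT2G05330 and AT2G09170 entered with 20, 21 and 22 untreated counts, and AT2G09650, AT4G06800 and AT4G05780 fell short with 19, 18 and 18. The 3 genes left out by name had 25725 (NIA2), 76342 (PSBX) and 154 (QQS) untreated counts.

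The first comparison asked how the expressed pericentromeric genes of wild type responded to azacytidine. Few were called, and the change that stood out was a fall of OPR3. This gene makes the enzyme that reduces 12-oxophytodienoic acid on the way to jasmonic acid. In edgeR's quasi-likelihood test 9 of 184 tested genes inside the spans were called at an adjusted p under 0.05 (4.89%), 3 upward and 6 downward. Of all 235 genes 228 were tested and 10 called (4.39%), 4 upward and 6 downward. Among 18632 other expressed genes 5.91% were called, 2.46% upward and 3.45% downward, so the share of the pericentromeric genes was near the background. In the 511 tested expressed genes that flank the windows 5.48% were called. An unadjusted p under 0.05 in edgeR was found for 44 of the 184 genes inside the spans (23.9%), against 23.6% of the other expressed genes. The median log2 fold change was -0.000572 over the genes inside the spans and 0.000926 over the other expressed genes, and 92 of the 184 lay on each side of 0. The 95% interval of the change lay within 2-fold in both directions for 138 of the 184 (75%), against 76.9% of the other expressed genes.

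**Figure D1:**
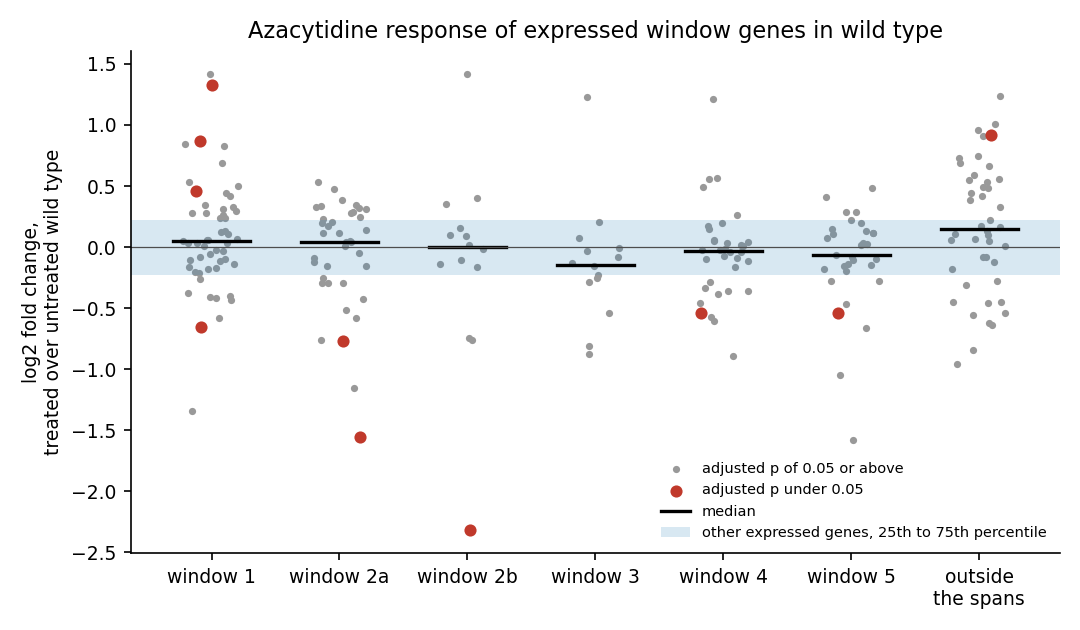
Log2 fold change of each tested window gene in azacytidine-treated over untreated wild type, by locus-number window for genes inside the spans and in 1 column for genes outside; black bars are medians, red points are called by edgeR at an adjusted p under 0.05, and the band spans the 25th to 75th percentile of the other expressed genes. Most genes of every window lie near 0, and the medians inside the spans run from -0.14 in window 3 to 0.05 in window 1.

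OPR3 (AT2G06050, 2359114 to 2362375 on chromosome 2) had 51.6, 56.3 and 43.5 CPM in treated wild type, against 145.5, 186 and 112 CPM in untreated wild type. Every treated replicate lay below every untreated one. The log2 fold change was -1.55 (SE 0.21, edgeR adjusted p = 0.00203), and OPR3 was called under all 16 alternative fits. AT2G05310, whose product is uncharacterized, had 115, 115 and 123 CPM in treated wild type, against 208, 214 and 178 CPM in untreated wild type. The groups did not overlap, and its log2 fold change was -0.77 (SE 0.14, edgeR adjusted p = 0.00611), also called under all 16 alternatives.

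CINV1 (AT1G35580), for a cytosolic invertase that splits sucrose, had 108, 103 and 101 CPM in treated wild type, against 191, 162 and 138 CPM in untreated wild type. The groups did not overlap and the log2 fold change was -0.65 (SE 0.13, edgeR adjusted p = 0.0122). The call was lost in 2 of 16 alternatives, which left out treated replicate 2 or untreated replicate 1. AT5G35170, of the adenylate kinase family, had 173, 195 and 207 CPM in treated wild type, against 261, 301 and 272 CPM in untreated wild type. Its log2 fold change was -0.54 (SE 0.12, edgeR adjusted p = 0.0238), with no overlap between the groups, and 12 of 16 alternatives called it. AT4G08170, for a kinase of inositol trisphosphate, had 19.3, 19.9 and 18.5 CPM in treated wild type, against 33.0, 25.9 and 25.3 CPM in untreated wild type. It fell by 0.54 on the log2 scale (SE 0.13, edgeR adjusted p = 0.0296), and 10 of 16 alternatives called it.

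The sixth gene that fell, AT2G11270, for a citrate synthase-like protein, was near the limit of detection, at 0.0754, 0.232 and 0.235 CPM in treated wild type and 0.665, 1.34 and 0.809 CPM in untreated wild type. Its log2 fold change of -2.32 (SE 0.65, edgeR adjusted p = 0.0495) was called in 1 of the 12 alternatives that tested it. Exons of the opposite strand cover 28.9% of its exon bases, and it is named although its level lies under the 1 CPM that the naming rule asks for.

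Of the genes that rose, MLP168 (AT1G35310), a gene of the major latex protein-like family, had 3.69, 2.87 and 5.10 CPM in treated wild type, against 1.41, 1.89 and 1.32 CPM in untreated wild type. The groups did not overlap, and the log2 fold change was 1.33 (SE 0.34, edgeR adjusted p = 0.0358), with a call in 7 of 15 alternatives. AT1G35560, of the TCP family of plant transcription factors, had 18.8, 15.3 and 13.8 CPM in treated wild type, against 9.72, 8.04 and 8.53 CPM in untreated wild type. All treated replicates were higher, with a log2 fold change of 0.87 (SE 0.18, edgeR adjusted p = 0.0141) and a call in 13 of 16 alternatives. AT1G36280, of the L-Aspartase-like family, had 21.8, 23.7 and 21.7 CPM in treated wild type, against 15.04, 15.4 and 18.2 CPM in untreated wild type. It rose by 0.46 (log2 scale, SE 0.13, edgeR adjusted p = 0.0482), and 6 of 16 alternatives called it.

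AT4G05690, an antisense RNA gene outside the spans, at 5778891 to 5779084 on chromosome 4, had 33.99, 36.5 and 23.5 CPM in treated wild type, against 13.7, 20.6 and 15.4 CPM in untreated wild type. It rose by 0.92 on the log2 scale (SE 0.20, edgeR adjusted p = 0.0177), with a call in 13 of 16 alternatives. Exons of TL29 (AT4G09010), for a thylakoid lumen ascorbate peroxidase homologue, cover 23.2% of its exon bases on the opposite strand. TL29 had 280.1, 286.5 and 248 CPM in treated wild type, against 256.5, 269 and 232 CPM in untreated wild type, with a log2 fold change of 0.11 (SE 0.16, edgeR adjusted p = 0.735).

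The number of calls among the 228 genes depended on single replicates. Leaving out treated wild-type replicate 1, 2 or 3 gave 3, 3 or 6 calls, and leaving out untreated wild-type replicate 1, 2 or 3 gave 4, 4 or 20. DESeq2 called 14, of which 9 were also called by edgeR. Of 13 root marker genes tested, 4 fell and 9 did not pass the test, against 3.45% of the other expressed genes that fell. All 4, CASP1, CASP2, PER64 and ESB1, are among 6 tested markers of the endodermis, and no marker of the stele, ground tissue or root hairs was called. The 14 root markers summed to 101 to 105 CPM in treated wild type, against 119 to 148 CPM in untreated wild type. Of these 14, CASP5 was at 0 CPM in 1 treated and 1 untreated replicate. The 7 leaf mesophyll markers summed to 27100 to 28100 CPM in treated wild type, against 24700 to 33600 CPM in untreated wild type. In whole plants, fewer cells of a type and less RNA per cell cannot be told apart, and the part of tissue shares in these calls was not tested.

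**Figure D2:**
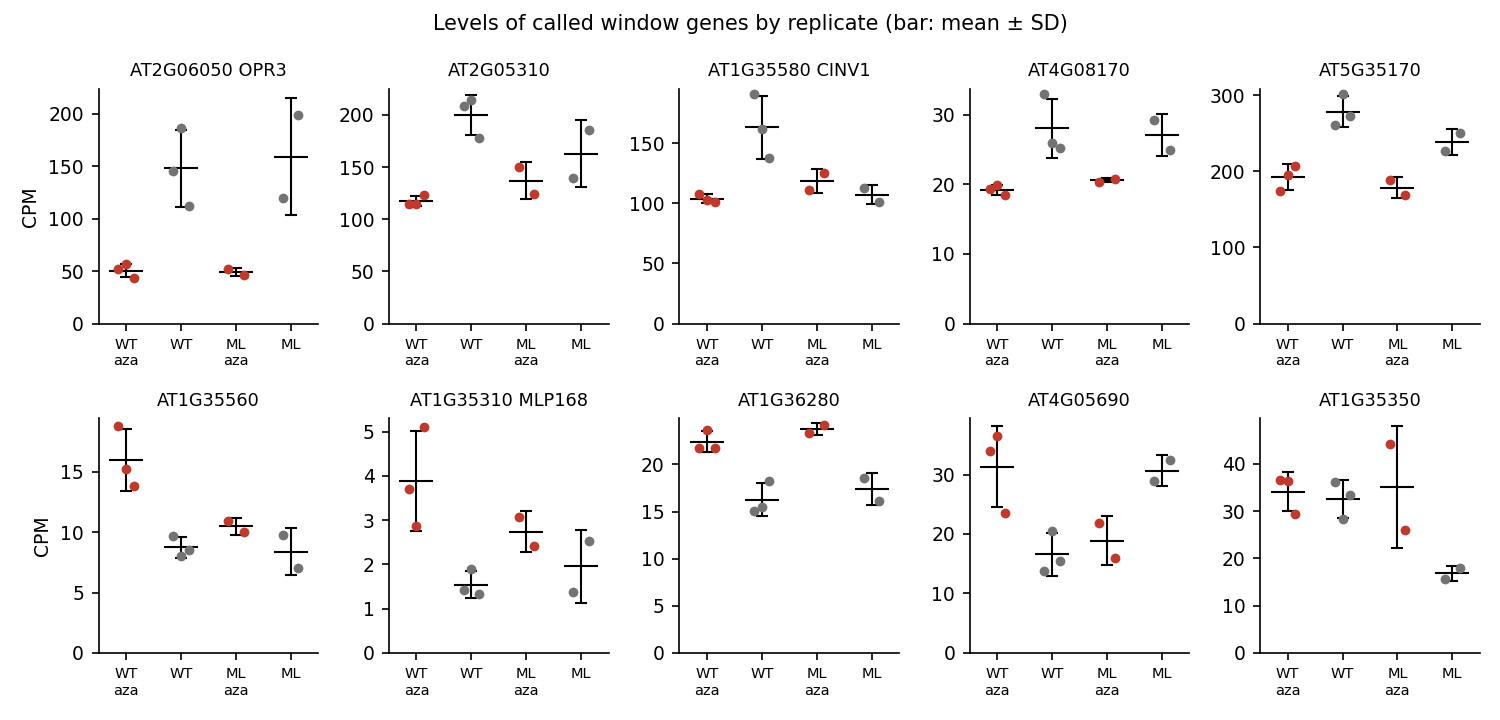
CPM of 10 called window genes in each replicate, for azacytidine-treated and untreated wild type (WT aza, WT) and memory line (ML aza, ML); points are replicates and bars give mean ± SD. OPR3 lies at 43.5 to 56.3 CPM in all 5 treated replicates and at 112 to 199 CPM in all 5 untreated ones.

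By role, 34 genes of the windows were described in 6 groups, of which 32 are expressed. The immune protease gene CDR1 and the ribosomal protein gene AT1G36240 lie under the floor. None of the 32 rose and 2 fell, OPR3 and CINV1, on azacytidine in wild type. These 6.25% lie near the 5.91% called among the other expressed genes, so the count is no result about these groups.

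Of 6 signalling genes none passed the test, and their log2 fold changes ran from -0.41 to 0.26. The kinase genes MEKK1, MAPKKK9 and MEKK3, a cluster of which MEKK1 acts in immune signalling, averaged 48.0, 16.2 and 66.3 CPM in treated wild type and 48.9, 15.8 and 67.0 CPM in untreated wild type. CDPK2, for a calcium-dependent protein kinase, had a log2 fold change of -0.41 (SE 0.13, edgeR adjusted p = 0.0773), and was called without wild-type replicate 3. ANNAT1 stood at 0.26 (SE 0.13), and RIPK, for a receptor-like cytoplasmic kinase of immunity, at -0.12 (SE 0.24). Of 3 genes of hormone synthesis, OPR3 fell. BR6OX2, for the enzyme of the last steps of brassinosteroid synthesis, stood at -0.25 (SE 0.25) and IBR1, which acts in the conversion of indole-butyric acid to auxin, at -0.11 (SE 0.13).

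Of 7 genes of the cell wall and secreted proteins none passed the test. EXT13, for an extensin-like structural protein, had 2.41, 1.94 and 3.30 CPM in treated wild type, against 4.24, 7.72 and 3.90 CPM in untreated wild type. Its groups did not overlap, but its log2 fold change of -1.05 (SE 0.32) had an edgeR adjusted p of 0.0666. DESeq2 called it. XTH4, for a xyloglucan endotransglucosylase of the wall, had 310.1, 342 and 314 CPM in treated wild type, against 375, 334 and 364.5 CPM in untreated wild type, and its groups overlapped. GRP-3, GRP3S and GRP9 had log2 fold changes of 0.29 (SE 0.21), -0.51 (SE 0.24) and 0.19 (SE 0.16). XGD1, for a pectin xylosyltransferase, stood at 0.41 (SE 0.20) and CSLC12, of the family that makes the xyloglucan backbone, at -0.28 (SE 0.27).

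Of 10 genes of lipid, plastid and primary metabolism, CINV1 fell and the other 9 did not pass the test. Their median log2 fold change was 0.14, against 0.000926 over the other expressed genes. SAPX, for the stromal ascorbate peroxidase, had 99.95, 134 and 123 CPM in treated wild type, against 82.3, 71.9 and 98.7 CPM in untreated wild type. Treated replicates were higher, the log2 fold change was 0.50 (SE 0.15), and the edgeR adjusted p was 0.0727, while DESeq2 called the gene. SHM7, for a serine hydroxymethyltransferase, stood at 0.69 (SE 0.26) and ACO3, for an aconitase of the citric acid cycle, at 0.32 (SE 0.14). ACC1 (cytosolic acetyl-CoA carboxylase), CAC2 (biotin carboxylase of the plastid enzyme) and MOD1 (enoyl reductase of fatty acid synthesis) stood at 0.14 (SE 0.15), 0.14 (SE 0.12) and 0.21 (SE 0.12). CAS1, for the first enzyme of plant sterol synthesis, and CUE1, for a plastid phosphoenolpyruvate translocator, both stood at 0.11 (SE 0.11 and 0.13). PAP26, for an acid phosphatase, stood at -0.18 (SE 0.11).

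The 4 genes of chromatin and transcription were close to level, with log2 fold changes from -0.04 to 0.18 and none called. ARP6, for a subunit of the complex that places the histone variant H2A.Z, had 24.7, 24.3 and 25.1 CPM in treated wild type, against 22.6, 24.6 and 27.4 CPM in untreated wild type. ELF8, for a subunit of the Paf1 elongation complex, stood at 0.18 (SE 0.14), GTA2, for an elongation factor of the SPT5 kind, at 0.14 (SE 0.11), and KNAT1, a homeobox gene of the shoot meristem, at -0.04 (SE 0.19). The ribosomal protein genes AT2G05220 and RPL21C stood at 0.24 (SE 0.13) and 0.03 (SE 0.16).

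In each of the 6 windows inside the spans 0 to 4 genes were called. The count was 4 of 53 tested in window 1, 2 of 38 in 2a, 1 of 14 in 2b, 0 of 14 in 3, 1 of 34 in 4 and 1 of 31 in 5. All 3 genes that rose inside the spans belonged to window 1. Window 3 had 2 genes at an unadjusted p under 0.05 in edgeR, and its 14 genes had a median log2 fold change of -0.14. Differences between windows were not tested.

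In the same spans the summed counts of silent coding genes were higher in treated plants, while the expressed genes together took a similar share of all counts. The 188 genes took 1.21%, 1.20% and 1.21% of all gene counts in treated wild type, against 1.16%, 1.17% and 1.18% in untreated wild type. The treated shares were slightly higher, without overlap. In the memory line they took 1.22% and 1.22% in treated replicates, against 1.22% and 1.17% in untreated ones. Without the 3 most abundant genes, AT2G10940, GRP-3 and RPS1, the shares ran from 0.960% to 0.978% in treated wild type and from 0.960% to 0.991% in untreated wild type, and so overlapped. The 182 coding identifiers of the spans under the floor held 440, 373 and 415 counts in treated wild type, against 34, 26 and 39 in untreated wild type. They held 339 and 342 counts in the treated memory line, against 58 and 37 in the untreated one.

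These sums are also given as CPM, in this paragraph without scaling between replicates. Over the spans they were 31.2 ± 2.37 CPM in treated and 2.57 ± 0.485 CPM in untreated wild type (SD, n = 3 each), a ratio of 12.2. The 4188 coding identifiers under the floor elsewhere summed to 414 ± 61.0 CPM in treated and 199 ± 6.81 CPM in untreated wild type, a ratio of 2.08. In the memory line the sums over the spans were 27.2 ± 0.141 CPM in treated and 3.88 ± 0.898 CPM in untreated plants (SD, n = 2 each), a ratio of 7.02, and elsewhere the ratio was 1.86. All 6 windows shared the direction in wild type. Window 5 held 374 counts over 22 identifiers in treated wild type, against 12 in untreated wild type, and window 1 held 240 over 44, against 6. Since the floor was set on untreated counts, these sums are low in untreated plants by choice, so the ratios are a description with no test. The same choice was made elsewhere, but the sets start from unlike levels. Of the 182 identifiers 141 had 0 untreated counts, against 2212 of the 4188 elsewhere, so the ratios are not on an equal footing.

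**Figure D3:**
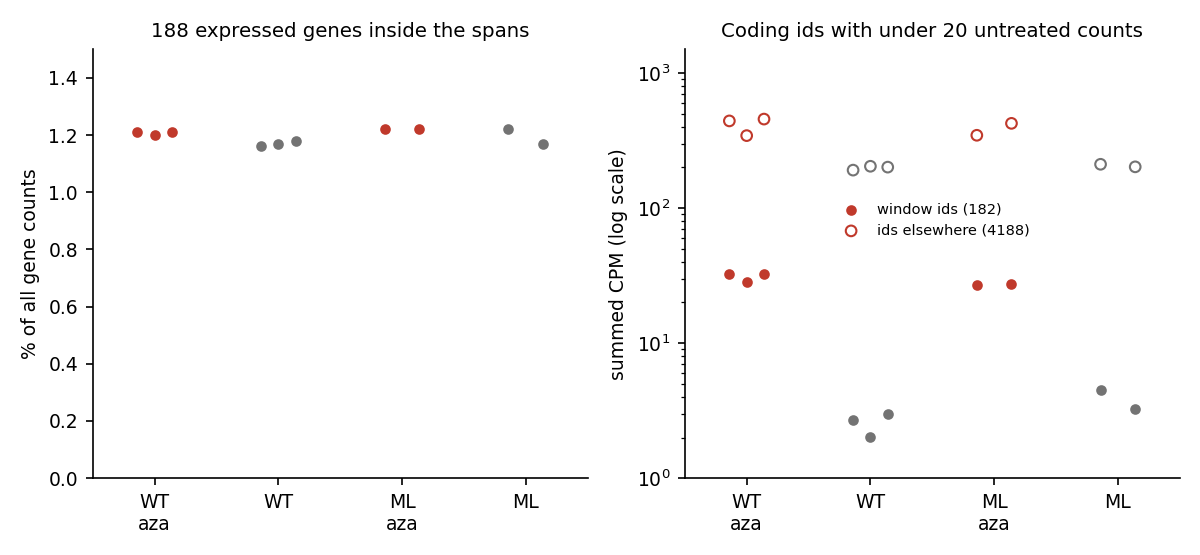
Left, share of all gene counts in the 188 expressed genes inside the spans. Right, summed CPM on a log scale of coding identifiers with under 20 untreated counts, inside the spans (filled) and elsewhere (open). The summed CPM are not scaled between replicates. Points are replicates of azacytidine-treated (red) and untreated (grey) wild type and memory line. The share lies between 1.16% and 1.22% in all replicates. The sums over the spans are 28.5 to 32.7 CPM in treated and 2.03 to 2.97 CPM in untreated wild type.

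Only 13 of these 182 identifiers and 77 of the 4188 elsewhere had enough counts to be tested. They could reach that only through treated plants, so their calls are not given as a comparison. AT1G36240, of a ribosomal protein family and with its start region given above, had 47, 37 and 46 counts in treated wild type, against 0, 0 and 0 in untreated wild type. It had 8 and 28 counts in the treated memory line, against 0 and 0 in the untreated one. The gene belongs to a family with near copies, and its reads are uncertain to that extent.

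Expressed genes close to a switched-on neighbour were too few to compare with other genes. Inside the spans 36 identifiers, with any last digit, were under the floor and called upward in treated wild type. They could be tested only through treated plants, so these calls are no result and serve only to pick neighbours. Of the 188 genes, 8 lay within 5 kb of 1 of 6 of these identifiers. Of the 8 genes 7 were tested and 0 were called in edgeR, with log2 fold changes from -0.76 to 0.34 and a median of -0.14. With 5.91% of the other expressed genes called, 0 of 7 is no result about these genes. AT2G05920, 4772 bases from the noncoding RNA gene AT2G05914, stood at 0.34 (SE 0.12, edgeR adjusted p = 0.111), while AT2G05914 held 808, 509 and 641 counts in treated wild type, against 2, 3 and 3 in untreated wild type. CSLC12, 2988 bases from AT4G07965, had 7.76, 6.51 and 6.44 CPM in treated wild type, against 8.56, 5.83 and 10.8 CPM in untreated wild type. AT4G07965 itself had 63, 66 and 70 counts in treated wild type, against 0, 0 and 0 in untreated wild type. AT5G35370, 926 bases from AT5G35375, stood at -0.14 (SE 0.19). The distance and the 8 genes were chosen after the values had been seen, and the intervals of single genes allow moderate changes.

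In the memory line azacytidine changed 1 of the 228 genes, OPR3 (0.439%), against 0.483% of the other expressed genes. OPR3 had 52.2 and 46.3 CPM in the treated memory line, against 119.6 and 199 CPM in the untreated memory line. Both treated replicates were lower, and the log2 fold change was -1.69 (SE 0.26, edgeR adjusted p = 0.0105). The call was lost without either treated replicate, at adjusted p up to 0.101, which leaves 1 sample in that group, assumed to vary like the others. The difference between the OPR3 responses of both genotypes was -0.14 (SE 0.33, edgeR adjusted p = 0.932), with a 95% interval of -0.87 to 0.59. DESeq2 called 3 genes, OPR3, AT1G35350 and GRP9. The root markers summed to 99.4 to 100 CPM in the treated memory line, against 122 to 125 CPM in the untreated one, and none was called. The leaf mesophyll markers summed to 14700 to 31900 CPM in the treated memory line, against 17500 to 33000 CPM in the untreated one, so replicates of the same group stood far apart. The part of these spreads in the memory-line results was not tested.

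Log2 fold changes in the memory line follow for other genes called in wild type, without AT2G11270, which was near the limit of detection. AT5G35170 stood at -0.42 (SE 0.15), AT4G08170 at -0.40 (SE 0.16) and AT2G05310 at -0.25 (SE 0.17). AT1G36280 stood at 0.45 (SE 0.16), MLP168 at 0.50 (SE 0.42) and AT1G35560 at 0.31 (SE 0.22), none of them called. CINV1 had 111.5 and 125 CPM in the treated memory line, against 113 and 101.5 CPM in the untreated memory line, and its groups overlapped. Its response differed between the genotypes by 0.80 (SE 0.21), with an edgeR adjusted p of 0.343. AT4G05690, outside the spans, rose in wild type, while every treated memory-line replicate was lower than the untreated ones. Its response differed by -1.62 (SE 0.308, edgeR adjusted p = 0.178).

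Across the 184 tested genes inside the spans the azacytidine responses of both genotypes, which share no library, had a Pearson r of 0.378 and a Spearman rho of 0.281, and 99 (53.8%) had the same sign. Across the 18632 other expressed genes r was 0.375 and rho 0.314, and 60.4% had the same sign. These values are across genes, which are not independent, and describe likeness only.

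**Figure D4:**
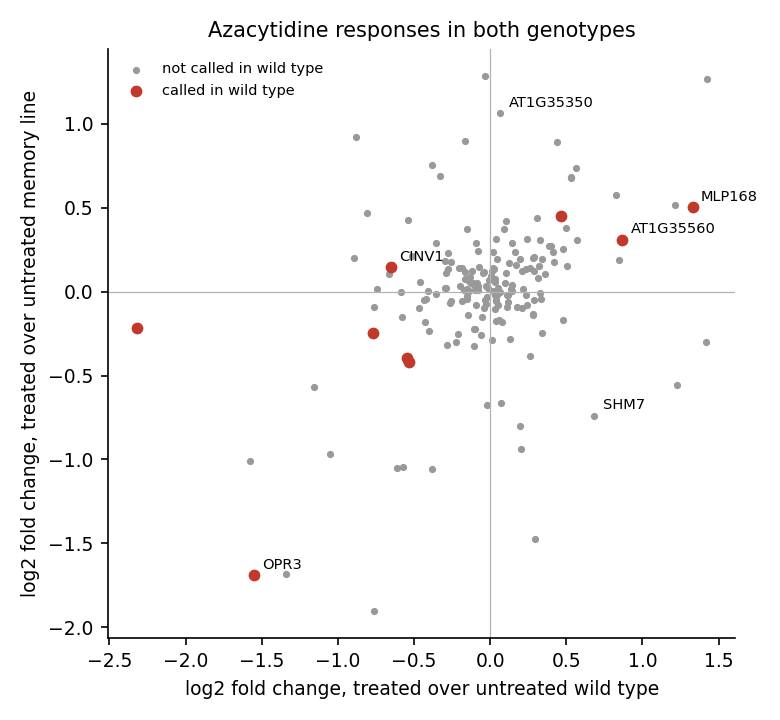
Log2 fold change on azacytidine in the memory line (vertical axis) against that in wild type (horizontal axis) for the 184 tested genes inside the spans; red points are called in wild type. OPR3 lies at -1.55 in wild type and -1.69 in the memory line, while CINV1 lies at -0.65 and 0.15.

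No gene of the windows was called for a difference between the azacytidine responses, against 0.0215% of the other expressed genes. In edgeR 23 of the 228 had an unadjusted p under 0.05 (against 8.28% of the other expressed genes), and DESeq2 called 2, GRP9 and AT4G05690. GRP9 had 385.5 and 427 CPM in the treated memory line, against 686 and 729 CPM in the untreated one, and 433, 504 and 641 CPM in treated wild type, against 482, 489 and 410 CPM in untreated wild type. The memory-line replicates did not overlap and those of wild type did. The difference was -0.99 (SE 0.25, edgeR adjusted p = 0.343). In 8 of the 228 genes (3.51%) the responses were opposite, with no overlap between treated and untreated replicates in either genotype, against 2.33% of the other expressed genes. Inside the spans these were 5 of 184 (2.72%), and outside 3 of 44 (6.82%).

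Between the genotypes on azacytidine no gene of the windows was called by edgeR, against 0.0537% of the other expressed genes. In edgeR 31 of the 228 had an unadjusted p under 0.05 (13.6%, against 11.6% of the other expressed genes). Inside the spans these were 18 of 184 (9.78%), and outside 13 of 44 (29.5%). DESeq2 called 3, ANNAT1, ACC2 and SHM7. SHM7 had 74.9 and 41.3 CPM in the treated memory line, against 217, 152 and 138 CPM in treated wild type. Its groups did not overlap, and its log2 fold change was -1.54 (SE 0.31, edgeR adjusted p = 0.117). ANNAT1 had 269 and 278 CPM in the treated memory line, against 434, 347 and 358 CPM in treated wild type, with a log2 fold change of -0.47 (SE 0.15, edgeR adjusted p = 0.221).

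Without azacytidine 1 of the 228 genes differed between the genotypes (0.439%), against 1.26% of the other expressed genes. AT1G35350, for a transmembrane protein of the EXS family, had 15.6 and 17.95 CPM in the memory line, against 36.1, 28.3 and 33.3 CPM in wild type. Its groups did not overlap, and its log2 fold change was -0.96 (SE 0.21, edgeR adjusted p = 0.0488). The call was lost in 9 of 16 alternatives, among them those without memory-line replicate 1 or 2 and without wild-type replicate 1 or 2, with an adjusted p of up to 0.145. On azacytidine the gene had 44.2 and 25.97 CPM in the memory line, against 36.5, 36.4 and 29.4 CPM in wild type, and the groups overlapped.

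DESeq2 called 7 of the 228 genes in untreated plants. ACC2, a plastid acetyl-CoA carboxylase gene next to ACC1, had 85.4 and 26.7 CPM in the memory line, against 11.1, 9.69 and 16.6 CPM in wild type. Its log2 fold change was 2.17 (SE 0.47, edgeR adjusted p = 0.0810), and 1.92 (SE 0.46, edgeR adjusted p = 0.188) on azacytidine, with 63.5 and 104 CPM in the treated memory line, against 22.1, 23.4 and 21.0 CPM in treated wild type. All memory-line replicates were above all wild-type replicates of the same treatment, and the untreated memory-line replicates differed more than 3-fold. ACC1 and ACC2 are near copies, so their counts may share reads. ACC2 was named after its values were seen.

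The 3 kinase genes of the MEKK cluster did not pass the test between the genotypes. MEKK3 had 51.0 and 33.8 CPM in the memory line, against 87.8, 61.1 and 52.1 CPM in wild type, with a log2 fold change of -0.65 (SE 0.22, edgeR adjusted p = 0.168). On azacytidine it was -0.62 (SE 0.22, edgeR adjusted p = 0.295). MEKK1 stood at -0.25 (SE 0.14) and MAPKKK9 at -0.34 (SE 0.15) without azacytidine, neither of them called. The comparisons with and without azacytidine share no library here, while each shares its replicates with an azacytidine comparison. CINV1 had 113 and 101.5 CPM in the memory line, against 191, 162 and 138 CPM in wild type, with a log2 fold change of -0.61 (SE 0.15, edgeR adjusted p = 0.0640), and DESeq2 called it.

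In window 3 the 14 tested genes had a median log2 fold change of -0.31 in the untreated memory line against wild type, and 5 of the 14 had an unadjusted p under 0.05 in edgeR (35.7%, against 16.4% of the other expressed genes). None was called, and the window was singled out after its values were seen. In the other 5 windows the median ran from -0.15 to 0.10.

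The 47 genes outside the spans were lower in level, with a median of 8.80 CPM per kb and 352 exon bases, and less precisely measured. Of 44 tested, 1 was called on azacytidine in wild type, AT4G05690 (2.27%, against 5.91% of the other expressed genes), and 0 in the other comparisons by edgeR. Their unadjusted p in edgeR was under 0.05 for 10 of 44 on azacytidine in wild type (22.7%, against 23.6% of the other expressed genes) and for 2 on azacytidine in the memory line (4.55%, against 8.57%). Between the genotypes it was under 0.05 for 13 on azacytidine (29.5%, against 11.6%) and for 3 without it (6.82%, against 16.4%). The differences in share were not tested. Their median log2 fold change on azacytidine in wild type was 0.15, with a median SE of 0.31, against a median SE of 0.16 for the genes inside the spans. AT4G06870, with all its exon bases under opposite exons, had 20.4, 17.7 and 24.3 CPM in treated wild type, against 29.9, 25.7 and 21.8 CPM in untreated wild type, and was not called.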

How the data were processed

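The deposited files hold raw counts per gene and library, counted by the authors before any scaling. The submitters' processing notes name TAIR10 and DESeq2 without a role, and the aligner and counter were not given in the sources used here. A total of 26 libraries were summed to 10 replicates, and 5 entries that name no gene (48.3% to 49.3% of reads fell in no feature) stayed out. Of 33977 identifiers 32548 matched the TAIR10.1 annotation; the files hold no coordinates, so all positions are from TAIR10.1. Counts were fitted with edgeR 4.0.16 in R 4.3.3 (TMM scaling, robust quasi-likelihood, filterByExpr with minimum count 10 and total 15) over 22031 genes, with Benjamini-Hochberg adjustment over all of them and an adjusted p under 0.05 as a call. There were 5 comparisons. The fit had 6 residual degrees of freedom. A run on simulated counts used the same spread for every gene and only changes of at least 2-fold. Smaller changes were not covered by it. DESeq2 1.42.0, other scalings, filters, floors and left-out replicates were alternatives. Members and lists were chosen with earlier results of these data known. The text names the genes of 6 role groups, up to 10 called genes per direction with a mean of at least 1 CPM, the 2 highest genes per window and 3 genes on each side of the floor; exceptions are stated. Same-numbered replicates did not all deviate together, so none were paired.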

Additional observations from a re-analysis of the deposited data

Results flagged for a closer look

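In 4 genes of the windows every treated wild-type replicate was higher, and every treated memory-line replicate lower, than all untreated replicates of the same genotype. The difference between the responses, memory line minus wild type, was -0.645 (log2 scale, SE 0.206, edgeR adjusted p = 0.444) for ANNAT1 and -1.42 (SE 0.421, edgeR adjusted p = 0.439) for SHM7. It was -0.419 (SE 0.169, edgeR adjusted p = 0.538) for SKS6 and -1.62 (SE 0.308, edgeR adjusted p = 0.178) for AT4G05690, which lies outside the spans. In 4 others every treated wild-type replicate was lower and every treated memory-line replicate higher. The difference was 0.645 (SE 0.23, edgeR adjusted p = 0.483) for AT4G06770 and 0.91 (SE 0.317, edgeR adjusted p = 0.475) for AT4G06980, both noncoding RNAs outside the spans. It was 0.411 (SE 0.179, edgeR adjusted p = 0.565) for AT5G32440 and 0.51 (SE 0.175, edgeR adjusted p = 0.475) for AT5G32450. SKS6 and these 4 fall outside the naming rule and were named after their values were seen. Of the 8 genes 5 lie inside the spans (2.72% of 184 tested) and 3 outside (6.82% of 44). Together these 8 are 3.51% of the 228 tested genes, against 2.33% of the 18632 other expressed genes, a share that was not tested. Of those others 194 were higher in treated wild type and lower in the treated memory line, and 240 the other way. None of the 8 passed the edgeR threshold, and DESeq2 called the difference for AT4G05690, at -1.64 (adjusted p = 0.00172).

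Coding identifiers of the spans under the floor, which no test of the expressed genes uses, held at least 373 counts in each treated wild-type replicate, against at most 39 in the untreated ones. In the memory line they held at least 339 counts in each treated replicate, against at most 58 in the untreated ones. Since the floor was set on untreated counts, the untreated sums are low by choice. The contrast is a description and was not tested.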

How the results depend on the processing

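No called value changed sign, while medians near 0 did. Over the single genes named by role or by a call, 47 values lost a call, 21 gained one and 0 reversed. AT2G11270 and the window genes that are not named were left out of these counts. Without untreated wild-type replicate 3, 20 window genes were called for azacytidine in wild type, of which 8 were shared with the main fit. With each replicate left out in turn, the calls among the window genes ranged from 3 to 20 for azacytidine in wild type, 0 to 1 in the memory line, 0 to 1 between genotypes on azacytidine, 0 to 3 between untreated genotypes, and were 0 for the difference between responses. The median log2 fold changes ranged from 0.00823 to 0.0478, 0.0121 to 0.0563, -0.0105 to 0.0245, -0.0354 to 0.0175 and -0.0238 to 0.0589 in the same order. DESeq2 called 3, 3, 7 and 2 genes in the last 4 comparisons, with medians of 0.0154 in the treated memory line, 0.00437 between genotypes on azacytidine and -0.0181 for the difference. RLE size factors gave 0 calls between untreated genotypes, and medians of 0.0145, 0.00447 and -0.0146 in those 3 comparisons. With no filter on low counts there were 2 calls for azacytidine in the memory line and 3 between untreated genotypes, with medians of 0.0158 in the memory line and -0.0136 for the difference. A stricter filter gave medians of 0.0175, -0.0249, -0.00828 and -0.0203 in the last 4 comparisons.

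The first technical library alone gave 0 calls between untreated genotypes, and medians of 0.0586 for azacytidine in wild type, -0.0417 between genotypes on azacytidine, 0.024 untreated and -0.0496 for the difference. With no floor there were 23 calls for azacytidine in wild type and 6 in the memory line. The genes that this adds lie under the floor and could be tested only through treated plants, so their calls are no comparison. The medians with no floor were 0.04 (wild type), 0.0509 (memory line), -0.0099 (between genotypes on azacytidine) and -0.0138 (difference). A floor of 200 counts gave medians of 0.00964 for azacytidine in wild type, 0.000132 between genotypes on azacytidine and -0.0096 untreated. Keeping the 3 left-out genes gave 2 calls in the memory line and a median of -0.00994 for the difference. Without genes under opposite-strand exons the medians were -0.000572 for azacytidine in wild type, -0.0204 untreated and 0.02 for the difference; inside the spans they were -0.000572, -0.0086 and 0.02. The cause of the other shifts was not tested.

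The replicate number was also fitted as a block, although numbers did not pair the samples (correlations of deviations -0.12 to 0.145). The replicate block gave 8 calls for azacytidine in wild type, of which 7 were shared, 1 in the memory line, 1 between genotypes on azacytidine, 5 untreated and 0 for the difference. With crossed numbers in the memory line the block gave 1 call.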
